A study of Rhipicephalus microplus with 12 samples.

Results

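The midgut and the salivary glands of the cattle tick Rhipicephalus microplus were compared in adult females of the Mozambique strain, taken on day 20 of infestation of cattle. The comparison rests on 8 of the 12 arrays of the series, 4 of midgut and 4 of salivary gland, chosen by the tissue in their titles. The other 4 arrays carry ovary and served to estimate the spread. A tissue has 2 biological replicates, each hybridised to 2 arrays whose mean was taken as 1 value (n = 2 per tissue). Every array set the tissue, labelled with Cy5, against a common reference pool labelled with Cy3, which combined mixed stages and feeding days with tissues dissected from day 20 females. The labels name no treatment, and larvae of all groups had fed on Holstein-Friesian cattle. The labels do not give the number of ticks behind a replicate or whether replicates came from separate animals, and the p-values thus reflect just how much these samples vary. One slide carried the midgut and the salivary gland arrays, so the slide does not differ between them, and another carried ovary.

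The tick midgut takes up the blood meal, which is digested largely inside its cells by acid proteases, and it handles the haem and iron that digestion sets free. The salivary glands secrete the cement that fixes the tick to its host and a mixture of proteins that act on host clotting and immunity, and they return excess water of the meal to the host. Transcripts of both organs have been studied as sources of vaccine antigens against this tick. The probes of this array are named by contigs or sequence entries, for which no gene description was given. Known midgut and salivary markers could therefore not be looked up, and the tissue labels were not checked against markers here.

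The values are log2 ratios, likely of tissue over pool, for 13459 probes, of which 10695 have an identifier. A difference is midgut minus salivary gland on the log2 scale, so that positive values are higher in midgut. In whole tissue, fewer cells of a type and less RNA per cell cannot be told apart. Across probes, salivary gland lay nearer to the pool than midgut: the mean ratios had an SD across probes of 0.71 in salivary gland and 1.08 in midgut. The lowest mean ratio was -4.85 in salivary gland and -6.14 in midgut, and the highest were 2.50 and 3.61. The arrays of a replicate correlated across probes at 0.948 and 0.873 in midgut and at 0.882 and 0.939 in salivary gland. The median gap between replicates was 0.23 in midgut and 0.25 in salivary gland on the log2 scale.

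One midgut array stood apart. The repeat array of replicate 2 had a median log2 ratio of -0.05, whereas the other midgut arrays had 0.26 to 0.31 and the salivary gland arrays 0.08 to 0.14. At 72.7% of the probes it lay below the mean of the other midgut arrays. Several values that rest on it are therefore also given without it, a setting chosen for most of them after the data were seen. Others are given only with it, among them the overlaps of arrays, the intervals and the correlation between replicates. In ovary, which entered the spread, the median ratio was -0.03 on the first array of replicate 1 and 0.39 on its repeat. In ovary replicate 2 it was 0.34 on the first array and -0.03 on the repeat.

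Over the whole array 2686 of 13459 probes (20.0%) had a limma adjusted p of at most 0.05, and they are termed called below. Of these, 1256 (9.33% of all probes) were higher in midgut and 1430 (10.6%) were higher in salivary gland. The median size of a called difference was 2.24-fold for probes higher in midgut and 2.50-fold for those higher in salivary gland, and the smallest called difference was 1.54-fold. The 95% interval lay wholly beyond 2-fold for 421 probes higher in midgut and for 482 higher in salivary gland, 33.5% and 33.7% of the called. With ovary left out of the fit, 2099 probes were called, 942 higher in midgut and 1157 higher in salivary gland. A fit of only the 10695 probes with an identifier called 3083 of them, 1437 higher in midgut and 1646 higher in salivary gland. Centring each array on its median, which lowered the median difference over all probes by 0.11 from 0.13, gave 993 higher in midgut and 1764 higher in salivary gland. This changed the share of calls in favour of midgut from 46.8% to 36.0%. Scale normalization gave 1102 for midgut and 922 for salivary gland, a share of 54.4%, with 14 probes called in the opposite direction to the first fit. No majority direction is therefore given.

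The direction of the larger differences varied with the fold chosen. Called probes with at least 4-fold differences numbered 302 for midgut and 319 for salivary gland. At 8-fold or more there were 147 for midgut and 91 for salivary gland, and at 16-fold or more 53 and 15. At 32-fold or more a single probe remained for midgut and 4 for salivary gland, of which 2 have an identifier. A test of this imbalance was not made. Without the midgut array that stood apart, the counts were 155 and 91 at 8-fold, 54 and 14 at 16-fold, and 1 and 4 at 32-fold.

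**Figure D1:**
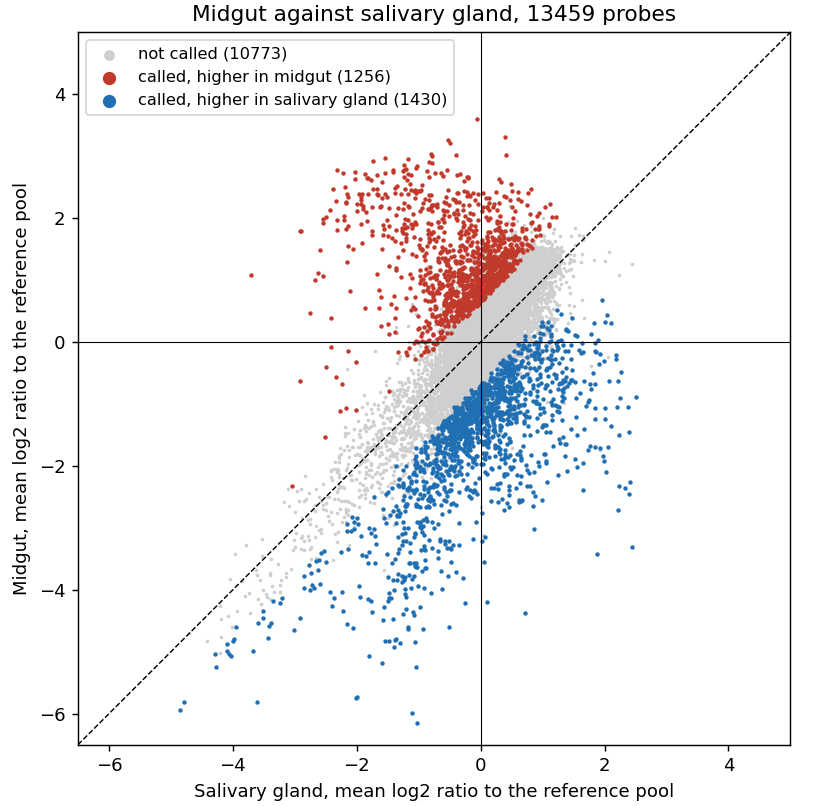
Mean log2 ratio to the reference pool of 13459 probes in salivary gland (horizontal axis) and midgut (vertical axis), each the mean of 2 replicates. Red points mark the 1256 probes called higher in midgut, blue points the 1430 called higher in salivary gland, grey points the 10773 not called, and the dashed line equal ratios.

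Set against the pool, the called groups were placed differently, as the scatter of midgut against salivary gland shows. Of the 1256 probes higher in midgut, 790 (62.9%) lay above the pool in midgut and below it in salivary gland, 437 (34.8%) lay above it in both tissues, and 29 (2.31%) below it in both. Of the 1430 higher in salivary gland, 748 (52.3%) lay below the pool in both tissues, 647 (45.2%) above it in salivary gland only, and 35 (2.45%) above it in both. Over all 13459 probes, 46.8% lay above the pool in both tissues and 28.1% below it in both. Probes higher in midgut thus had a median midgut ratio of 1.16 and a median salivary gland ratio of -0.20. Probes higher in salivary gland had a median salivary gland ratio of -0.05 and a median midgut ratio of -1.39. With centred arrays the share below the pool in both tissues was 56.9%.

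The shares of the midgut calls changed without the midgut array that stood apart, as did the set of probes called. Without it, 2689 probes were higher in midgut, and 1601 of them (59.5%) lay above the pool in both tissues, while 1044 (38.8%) lay above it in midgut only. Of 1437 probes newly called higher in midgut, 908 had no identifier. All probes without an identifier had a median of 1.24 on the other midgut arrays and 0.56 in salivary gland. At the 1256 probes called higher in midgut with all arrays, the median deviation of that array was -0.08. Those calls used the array, and a probe at which it deviates far is less likely to be called. The small value thus does not show that probes high in midgut were spared. At the 2942 probes with a mean over 1 on the other midgut arrays, the median deviation was -0.99. For salivary gland the placing moved little, with 872 of 1658 (52.6%) below the pool in both tissues. All of these shares take the ratio as tissue over pool. If the deposited ratios ran the other way, every sign would turn, so that above and below the pool, and higher in midgut and higher in salivary gland, would trade places while the counts stayed.

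Probes with at least 8-fold differences are described next. Among the 147 probes at least 8-fold higher in midgut, all 147 lay above the pool in midgut and 145 of them at least 2-fold above it, with ratios of 0.46 to 3.61 and a median of 2.33. Their salivary gland ratios ran from -3.71 to -0.06, and only 1 probe lay at least 8-fold below the pool there. Of the 91 probes at least 8-fold higher in salivary gland, 57 lay above the pool in salivary gland. The 34 not above the pool in salivary gland were below the pool in both tissues, with a median of -1.08 in salivary gland and of -4.60 in midgut.

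The ovary ratios, which entered the fit through the spread but not the difference, lay below both tissues at 116 (78.9%) of the 147 midgut probes and between them at 31 (21.1%). Their ovary median was -2.73. Of the 57 salivary gland probes above the pool, ovary lay below both tissues at 26 and between them at 31. Of the 34 below the pool, ovary lay below both at 15, between at 9 and above both at 10. At these 34 probes the ovary ratios spanned -6.76 to 1.83, and all 10 with ovary above both tissues exceeded the pool at least 2-fold in ovary. Over all probes, ovary lay below both tissues at 37.7%, between them at 21.1% and above both at 41.2%. Without the midgut array that stood apart, ovary lay below both tissues at 123 of 155 midgut probes (79.4%). Ovary and slide cannot be told apart in these positions.

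Contig5935 had the highest difference of all 13459 probes. Its log2 ratios were 2.71 and 2.83 in midgut replicates 1 and 2 and -1.93 and -2.71 in salivary gland replicates 1 and 2. Midgut stood far above the pool and salivary gland below it, and the 4 midgut arrays (2.70 to 2.84) did not come near the 4 salivary gland arrays (-2.84 to -1.89). The difference was 5.09 (SE 0.30, 95% interval 4.38 to 5.80), a fold of 34.1 with a limma adjusted p of 0.000187. Ovary was lower than both, at -4.04 and -4.48. Contig5086, the next in rank, had 2.69 and 2.77 in midgut and -2.06 and -2.38 in salivary gland. Its replicates were close in both tissues, with a difference of 4.95 (SE 0.23, 95% interval 4.41 to 5.49, limma adjusted p = 0.00012).

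Contig5329 had the lowest difference of all probes. Its ratios were -3.25 and -3.36 in midgut and 2.10 and 2.79 in salivary gland, and -3.41 and -4.38 in ovary. Salivary gland was thus the only one of the tissues above the pool. The difference was -5.76 (SE 0.36, 95% interval -6.62 to -4.89), or 54.0-fold in favour of salivary gland, with a limma adjusted p of 0.000202. CV452616 had -3.51 and -3.33 in midgut, 1.13 and 2.63 in salivary gland, and -4.82 and -4.75 in ovary. Both salivary gland replicates were above the pool but differed by more than 1 on the log2 scale, while their repeat arrays were close (1.10 and 1.15, and 2.66 and 2.61). The spread of this probe lay between biological replicates. Its difference was -5.30 (SE 0.44, 95% interval -6.35 to -4.26, limma adjusted p = 0.000462). All 4 probes had values from 4 midgut and 4 salivary gland arrays in the authors' deposited table, and each was called in all 23 alternative settings.

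**Figure D2:**
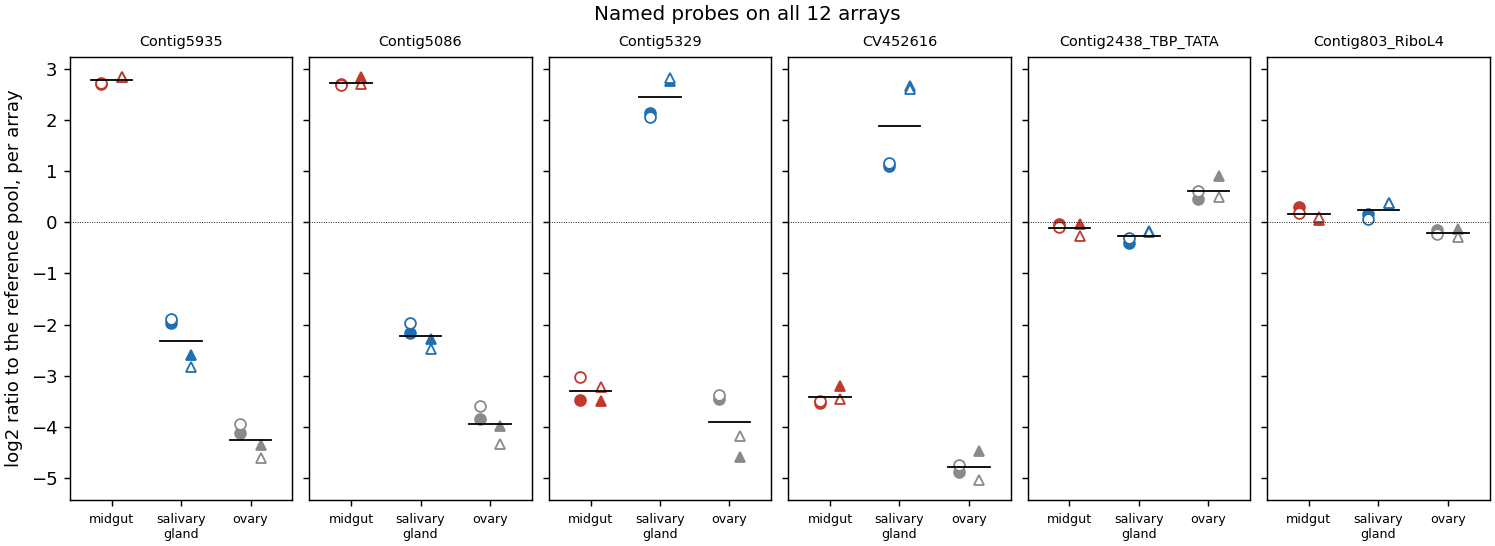
Log2 ratio to the reference pool of 6 named probes on each of the 12 arrays. Circles are replicate 1 and triangles replicate 2, filled for first arrays and open for repeat arrays, and black lines are tissue means. Contig5935 and Contig5086 are high in midgut only, Contig5329 and CV452616 in salivary gland only, and the 2 tagged probes lie near the pool in both tissues.

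Of the probe identifiers, 4 carry a gene tag, and 2 of these have values. Contig2438_TBP_TATA carries the tag of TATA-binding protein, which helps to place RNA polymerases at promoters, and had ratios of -0.06 and -0.15 in midgut and -0.36 and -0.19 in salivary gland. Its difference was 0.17 with a 95% interval of -0.27 to 0.60 (limma adjusted p = 0.558), so the interval leaves out a 2-fold difference in either direction. The probe tagged for ribosomal protein L4, a part of the large ribosomal subunit (Contig803_RiboL4), had 0.24 and 0.07 in midgut and 0.12 and 0.37 in salivary gland, and the replicates of the tissues overlapped. Its difference was -0.09 with an interval of -0.54 to 0.36 (limma adjusted p = 0.766), and it turned to 0.035 without salivary gland replicate 2.

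Of the 10773 probes not called, 6758 (62.7%) had a 95% interval within 2-fold in both directions. The interval of the other 4015 (37.3%) reached 2-fold or more, so a difference of that size was not excluded for them. Intervals extended a median of 0.53 to either side on the log2 scale.

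The comparison was also made for each replicate number, midgut minus salivary gland in replicates 1 and again in replicates 2, which share the slide and the pool but no tissue RNA. Across the 13459 probes the values correlated at r = 0.787. Of 140 probes at least 8-fold higher in midgut in replicates 1, 114 (81.4%) were so in replicates 2, where there were 168 in all, and 0 pointed the other way. Of 104 probes at least 8-fold higher in salivary gland in replicates 1, 53 (51.0%) were so in replicates 2, of 131 there, and again 0 pointed the other way. At 2-fold, 627 midgut probes were found in both, 49.4% of the 1269 in replicates 1 and 62.5% of the 1004 in replicates 2. For salivary gland 819 were found in both, 69.8% of 1173 and 60.4% of 1355. Of the 1269 midgut probes, 150 were at or below 0 in replicates 2, and of the 1173 salivary gland probes 40 were at or above 0. Without the midgut array that stood apart, which belongs to replicates 2, these numbers were 49 and 60. At 2-fold, 748 midgut probes were then found in both, 58.9% of the 1269 in replicates 1 but 43.8% of 1709 in replicates 2. For salivary gland 795 were found in both, 67.8% of 1173 and 61.5% of 1293. At 8-fold, 115 midgut probes were found in both, 82.1% of 140 and 63.2% of 182.

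The 4 midgut and 4 salivary gland arrays did not overlap at 5389 (40.0%) of all probes and at 2630 (97.9%) of the called ones. Called probes, and those with at least 8-fold differences, were chosen by these same arrays. Their lack of overlap thus follows largely from the choice and is no separate support. At the 147 midgut probes with at least 8-fold differences the arrays overlapped at 1 probe, and at none of the 91 salivary gland probes. Of these, 143 (97.3%) and 76 (83.5%) were called in the same direction under all 3 other scalings and without each midgut or salivary gland replicate. Over all 2686 called probes, 1050 met this condition, 524 higher in midgut and 526 higher in salivary gland. Salivary gland replicate 2 lay farther from the midgut mean than replicate 1 at 102 (69.4%) of the 147 and at 61 (67.0%) of the 91 probes, as it did at 57.1% of all probes.

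Leaving out the midgut array that stood apart raised the number of called probes from 2686 to 4347 (32.3%). Of the latter, 2689 had the higher value in midgut and 1658 the opposite, so the share in favour of midgut changed from 46.8% to 61.9%. The added calls were unevenly spread over the probes. Of 1684 probes called only without the array, 913 had no identifier, that is, they belonged to the 2764 lines left empty in the authors' deposited tables, and 908 of these were higher in midgut. At probes without an identifier the array lay below the other midgut arrays by a median of 1.15 on the log2 scale, with 58.4% of them at least 2-fold below. At the 7654 probes for which the authors had used all 8 arrays, the median deviation was -0.09, and 0.666% were at least 2-fold below. Among these 7654 probes the count moved only from 1939 (25.3%) to 2414 (31.5%), and the share in favour of midgut from 44.2% to 47.7%.

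**Figure D3:**
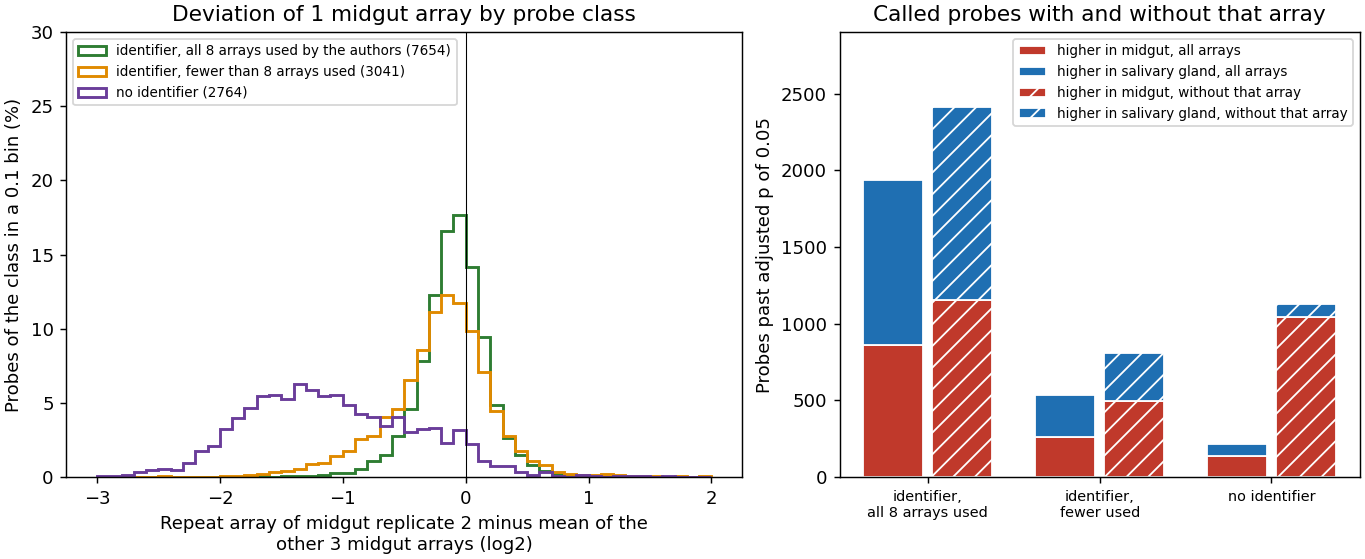
Left, the repeat array of midgut replicate 2 minus the mean of the other 3 midgut arrays (log2), as the percentage of probes per bin in 3 classes of probes. Right, called probes by class and direction with all arrays (plain bars) and without that array (hatched bars). Probes without an identifier had a median deviation of -1.15 and rose from 215 to 1125 called probes.

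Probes without an identifier also differed from the others with all arrays in use. Of the 2764, 215 (7.78%) were called, 137 higher in midgut and 78 in salivary gland, against 2471 (23.1%) of the 10695 with an identifier. Their median ratio was 0.95 in midgut and 0.56 in salivary gland, whereas probes with an identifier had 0.06 and -0.01. The median gap between midgut replicates was 0.64 at probes without and 0.19 at probes with an identifier, while that between salivary gland replicates was 0.24 and 0.25. They supplied 3 of the 147 midgut probes and 12 of the 91 salivary gland probes with at least 8-fold differences.

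In the authors' deposited table, 4624 of 10695 probes (43.2%) have an adjusted p of at most 0.05 for midgut against salivary gland, 2235 higher in midgut and 2389 in salivary gland. Of these, 2412 were also called here, and the 2212 probes called in the authors' deposited table alone had a median size here of 0.58 on the log2 scale. The calls are not like for like. Here the arrays of a replicate were averaged and the adjustment covered 13459 probes. How the authors' test treated arrays of a replicate was not established. The number of arrays behind a value in the authors' deposited table follows from the match to the array means. For 7654 probes it was all 8 arrays, and for 3041 probes fewer. Of the latter, 337 had a difference of opposite sign in the authors' deposited table, but 0 of the probes called in both had. The largest gap in difference over all 3041 was 1.48. For 237 probes at most 4 arrays had been used, and 17 of these (7.17%) pass in the authors' deposited table.

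The larger kinds of identifiers held similar shares of called probes. Of 7616 measured probes with a Contig identifier 23.2% were called, of 1415 starting with CV 20.3%, of 1056 starting with CK 24.5%, of 385 starting with TC 24.7% and of 171 starting with EW 22.8%. Smaller kinds varied more, with 6 of 22 (27.3%) starting with U and 6 of 15 (40.0%) starting with AA. At least 8-fold differences in favour of midgut numbered 14 among the TC probes and 108 among the Contig probes, and those in favour of salivary gland 2 and 60. The 15 measured probes whose identifier starts with GO, of 28 listed, had 10 called (11 without the midgut array that stood apart), all higher in salivary gland and 4 of them at least 8-fold. This class was singled out after its values were seen, so it is given as a description with no test.

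Most GO probes lay below the pool in all tissues, and least far below it in salivary gland. Salivary gland replicate 1 ranged from -2.76 to 0.04 with a median of -1.58, and replicate 2 from -2.68 to -0.15 with a median of -0.49. Midgut replicates had medians of -3.54 and -3.77, and ovary replicates -4.66 and -5.17. None of the 15 mean ratios in salivary gland was above the pool. Differences ran from -4.19 for GO248518.1 (SE 0.36, limma adjusted p = 0.000503) to 0.43, with a median of -2.12, and 12 of 15 were below 0. The salivary gland replicates of some of these probes were far apart, with an SD of up to 1.70 for n = 2. Of the 10 called probes, 5 were also called under the 3 other scalings and without each midgut or salivary gland replicate. The files do not say where these sequences came from.

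**Figure D4:**
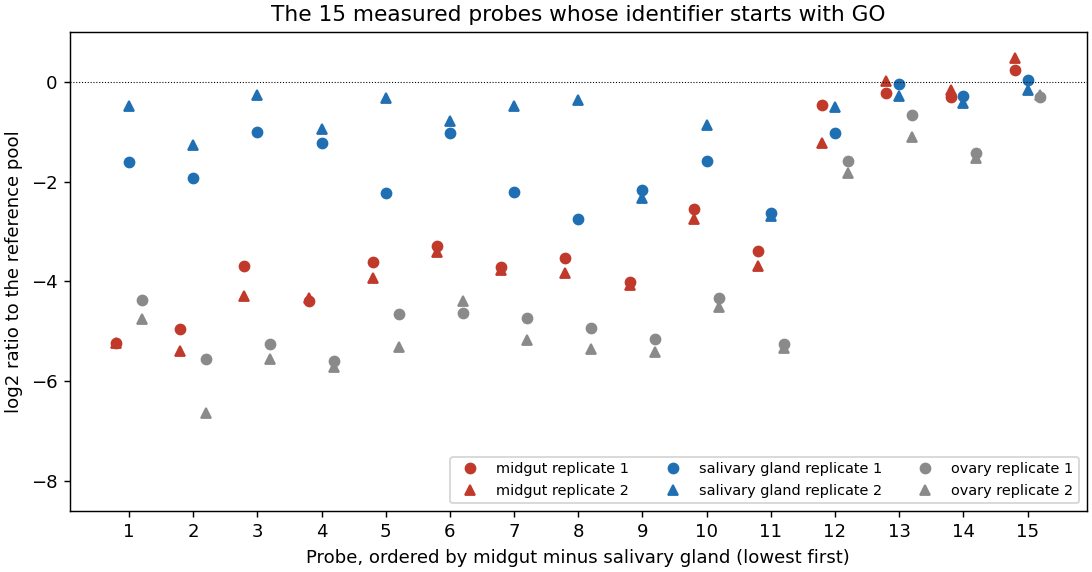
Log2 ratio to the reference pool in each replicate (circles replicate 1, triangles replicate 2) of the 15 measured probes whose identifier starts with GO, ordered by midgut minus salivary gland. At most probes salivary gland (blue) lies above midgut (red) and ovary (grey) and below the pool, and at the 4 on the right midgut and salivary gland lie close together.

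Some contigs carry a pair of probes marked A and B, and the files do not say how these differ. Both probes had values for 58 contigs. Their differences between midgut and salivary gland correlated at only r = 0.12 across the 58 contigs, and 34 had the same sign. The median gap between A and B was 0.83 on the log2 scale, against a median standard error of that gap, from the SE of both probes, of 0.32. It was at least 1 for 22 contigs. Of the 116 probes, 38 (32.8%) were called, 19 of either kind, beside 23.1% of all probes with an identifier. Without the midgut array that stood apart 46 were called. At 28 contigs only 1 probe was called, with a median size of 1.43 against 0.31 for its partner.

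At 5 of the 58 contigs both probes were called, beside 33 with A or B called, 19 called A probes and 19 called B probes. Whether 5 exceeds the number that unlinked probes would give was not tested, so joint calls are not read as mutual support. The 5 contigs are named here for their small number, after their values were seen. Contig190 had differences of -2.61 for A and -1.66 for B, Contig240 had -1.11 and -0.92, and Contig86 had -0.64 and -0.84. These 3 were higher in salivary gland with both probes. Contig245 was higher in midgut with both, at 0.75 and 2.53. Contig88 pointed in opposite directions, with -0.88 for A (limma adjusted p = 0.0309) and 1.12 for B (limma adjusted p = 0.00735). The mean ratios of A and B themselves correlated across contigs at r = 0.073 in midgut and 0.068 in salivary gland. Whether A and B read the same transcript is not known, so their differences are not carried over to other probes. Most contigs on the array have a single probe, for which no such comparison could be made.

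**Figure D5:**
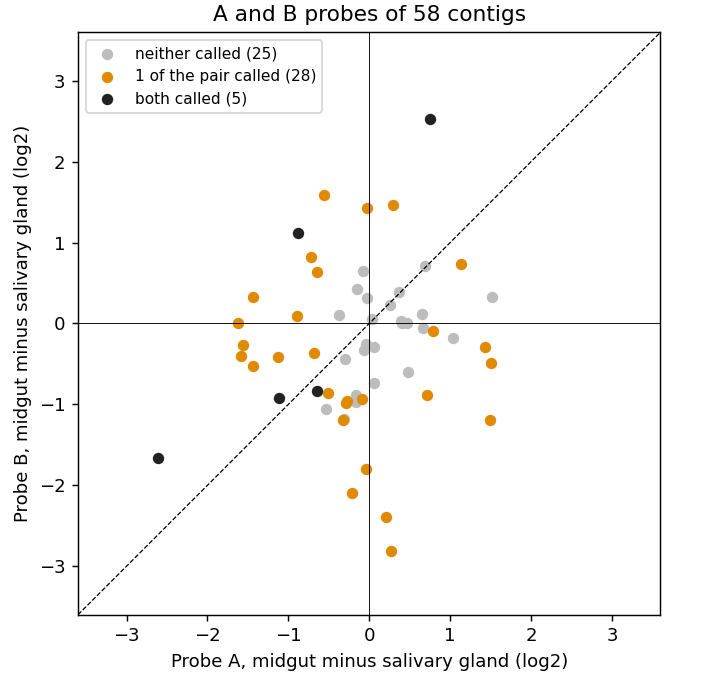
Midgut minus salivary gland (log2) of probe A (horizontal axis) and probe B (vertical axis) of 58 contigs, coloured by whether neither, 1 or both of the pair were called. The dashed line marks equal differences, and the 58 points scatter widely around it (r = 0.12).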

How the data were processed

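RNA of each tissue was hybridised with a reference pool on arrays of 2 colours, without dye swaps. The deposited log2 ratios came from limma in the authors' hands, per the submitters' processing notes. Version, background correction and normalization: not given in the sources used here. Spot intensities were not used here, so dim spots are not marked. The authors' deposited tables give a log2 fold change, a fold (a ratio, or a signed score), and an adjusted p-value per probe. The deposited log2 scale follows from the fold, which is a power of 2 of the log2 value.

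Lines of the value table carry numbers only. Identifiers were paired with them by way of the deposited log2 fold changes between tissues, which had to equal differences of means of all or some arrays within 2e-08. All 10695 identifiers with values found 1 line, and 0 of as many decoys did. None was in the RefSeq table (0 matches).

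Arrays of a replicate were averaged, and tissue means of the 6 replicates were fitted by lmFit and eBayes (limma 3.58.1, R 4.3.3, 3 residual degrees of freedom), with Benjamini-Hochberg adjustment over 13459 probes, a threshold of 0.05 and no fold limit. An exact permutation test of 2 against 2 cannot go below p = 0.333 and was not run. Probes were named where, among called probes with an identifier and replicates that do not overlap, they ranked in the top 2 or bottom 2 by difference, or where they bear a gene tag. Members, lists and alternatives were chosen with earlier results of these data known. The procedure was tested on simulated data with independent noise and no array that stood apart, so that test does not cover the effect of such an array. Tables and figures were made with pandas 2.3.3, numpy 2.4.6 and matplotlib 3.10.9 under Python 3.11.15. The number of arrays limits the precision.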

Additional observations from a re-analysis of the deposited data

Results flagged for a closer look

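A search for single arrays far from the rest of their tissue covered 18 sets of 4 values and marked 2. Chance marks about 1 set in 20, but the sets are measures of the same 12 arrays and not independent. In midgut, the median log2 ratio of replicate 2 on its repeat array was -0.0478, far under the remaining arrays of that tissue, which spanned 0.259 to 0.305. In salivary gland, replicate 1 on its first array reached 0.140, over a span of 0.0764 to 0.0798 on the remaining arrays.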

How the results depend on the processing

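The counts below are in the order all called, higher in midgut, higher in salivary gland, and causes were not tested unless the setting itself gives them. The 4 named extreme probes kept their direction and call in all 23 alternatives, and only the ribosomal protein L4 probe, not called, changed sign (leaving out 1 replicate gave -0.22 without salivary gland replicate 1 to 0.035 without salivary gland replicate 2). First arrays only gave 1427, 654 and 773, and repeat arrays only 1118, 487 and 631. With all 12 arrays and the replicate as a random block there were 4190, 1947 and 2243. Without the repeat array of midgut replicate 2 there were 4347 called probes, 2689 of them for midgut against 1658 the other way, and 2391 were higher in midgut when ovary was also left out, a setting chosen after seeing the data. Without the 3 arrays of the series whose median log2 ratio was negative, 2066 were higher in midgut. Besides the repeat array of midgut replicate 2, those arrays were the first of ovary replicate 1 and the repeat of ovary replicate 2. Scale normalization gave 922 higher in salivary gland. A limma threshold of 0.01 kept 1222, 560 and 662, and a 2-fold limit left 786 higher in midgut. Dropping a replicate, so that the spread of the single one left is borrowed from the other tissues, gave 1693 to 2099, 690 to 1170 and 873 to 1157. The lowest came without salivary gland replicate 2 (1693 and 690) and midgut replicate 2 (873), with 1698 and 695 without salivary gland replicate 1 and 815 higher in midgut without midgut replicate 1. A replicate block gave 2560, 1149 and 1411, and the deviations of same-numbered replicates correlated at 0.034, which does not show that the numbers pair the samples. Without the repeat array of midgut replicate 2, also chosen after seeing the data, 98.4% of the probes higher in midgut lay above the pool in midgut and 59.5% in both tissues. Centred arrays, chosen after seeing the data for this purpose, put 95.9% of the probes higher in midgut above the pool in midgut and 29.9% above it in both tissues, and 43.1% of those higher in salivary gland above it in salivary gland and 56.9% below it in both.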
